A study of Drosophila melanogaster with 6 samples.

Results

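The transcriptome of the wing imaginal disc was described in the 3 control libraries of a 6-library RNA sequencing series, with no use of the overexpression contrast. Members were chosen by their labels alone: these are the libraries titled yw, each made from wing discs of wandering L3 (late larval) female Drosophila melanogaster larvae kept at 28 °C. Per the study's methods the control larvae were hs-FLP/+, tub>>>Gal4, UAS-CD8-GFP/+ and tub-Gal80ts/+, whereas the labels give their genotype as wild type. The controls therefore carried a tubulin promoter driving Gal4, a membrane GFP under Gal4 control, the temperature-sensitive Gal4 repressor Gal80ts and a heat-shock FLP recombinase. The other 3 libraries had the same transgenes plus UAS-nrf2, and they are used here only to check the label. The number of discs or larvae behind each library, and whether libraries came from separate crosses, were not given in the sources used here, so that the spread described below may be technical.

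The wing disc is a sac of epithelium set aside in the embryo, which proliferates through larval life and forms the wing blade, the hinge and the dorsal thorax (notum) at metamorphosis. It is divided into anterior and posterior compartments by engrailed, and into dorsal and ventral compartments by apterous, and the Hedgehog, Dpp, Wingless, Notch and Egfr pathways pattern it along these boundaries. At the wandering stage pulses of ecdysone start the change from growth to differentiation, while myoblasts that will form the flight muscles and a stretch of trachea lie against the epithelium.

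Each gene was read as counts per 1000000 counts of its library (CPM). The totals were 16594315, 16682764 and 16464410 counts in controls 1 to 3, so that 1 count was worth about 0.06 CPM. Levels were corrected for length as CPM per kilobase of merged exon length (CPM per kb), which was known for 13683 of 13955 genes. Where levels or orders of genes are given in CPM, they take no account of exon length. The label check used cnc, the fly Nrf2 gene that was overexpressed in the other group. Controls 1, 2 and 3 held 1983, 1777 and 1848 cnc counts, and the overexpression libraries held 84044, 147169 and 172120. Counts of y, a gene for cuticle pigment, were 1, 0 and 2, and those of w, an eye pigment transporter, were 1063, 846 and 926.

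The tissue label was checked with nub, vg, ap and en. The POU factor gene nub (2L: 12587625 to 12628135 in BDGP6.54, plus strand), a marker of the wing pouch, held 4050, 3212 and 3319 counts. The wing selector gene vg (2R: 12884201 to 12899385, plus strand) held 3052, 2520 and 2663, and the posterior selector gene en (2R: 11524006 to 11528210, minus strand) held 2695, 2066 and 2335. All 3 were present in every library, highest in control 1 and lowest in control 2. Of all 8278 genes with a mean of at least 10 counts, 4053 were highest in control 1 and 3553 lowest in control 2. The dorsal selector gene ap was not analysed here, since its identifier in the annotation matched no row. It may be among the 248 genes of the files without a symbol, so that no absence of ap is read from this.

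Markers of other tissues varied in how far they were present and in which library. The fat body list, made up of larval storage proteins and lipoproteins, summed to 152, 529 and 15.1 CPM in controls 1 to 3. All 8 of its genes were lowest in control 3, and 6 of 8 were highest in control 2. Of all 8278 genes with a mean of at least 10 counts, 2219 were lowest in control 3 and 2483 highest in control 2. The fat body list's mean share of the counts, 0.0232%, was 0.00838% without control 2. The myosin heavy chain gene Mhc, which defines contractile muscle, held 37, 266 and 48 counts, and the list of 10 muscle genes summed to 260, 330 and 252 CPM. Most of that sum came from the actin gene Act87E and the titin-like gene sls, with means of 118 and 61.4 CPM, against 7.03 CPM for Mhc. Act87E was highest in control 1 and sls in control 3. Haemocyte genes summed to 73.5, 63.0 and 55.3 CPM, most of it from the scavenger receptor gene crq at a mean of 45.2 CPM. The plasmatocyte gene NimC1 held at most 1 count, and PPO2, which marks crystal cells, held 174, 33 and 5. None of the 8 salivary glue genes was over 12 counts, and all 8 were at 0 in control 3. Of 8 neuronal or glial genes, nSyb, brp and repo held no more than 8 counts in any library, while the neuronal RNA-binding protein gene elav held 481, 362 and 449. Most of that list's summed level, 222 to 234 CPM, came from nrv2, a sodium pump subunit gene, with 3169, 3414 and 3372 counts. Male germline genes were at most 18 counts with 0 of 12 detected. The 6 tracheal genes that could be matched were all detected. Among them verm, a chitin deacetylase, had 652 ± 41.0 CPM (SD, n = 3) and the tracheal selector gene trh 63.4 ± 6.16 CPM. Of this list, vvl is a factor of trachea and wing, and kni also positions a wing vein. The list is thus not particular to trachea. The genes trh, vvl and kni were highest in control 1 and lowest in control 2. The reverse held for Gasp, serp and verm. Control 1 also stood apart in the balance of long and short genes, with a log2 deviation from the mean of the 3 libraries that was 0.07 higher for each doubling of exon length, against slopes of -0.05 and -0.02 in controls 2 and 3. In bulk RNA, fewer cells of a type and less RNA per cell cannot be told apart.

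Of the 13955 genes in the files, 7790 (55.8%) were detected, which is used here for at least 1 CPM in every control library. No count was recorded in any of the 3 libraries for 2577 genes, and a count of 0 allows a level of up to 0.18 CPM in a single library (3 counts). Between 10436 and 10476 genes had at least 1 count in a library. Most detected genes lay in the middle of the range: 4685 genes had a mean of 10 to 100 CPM and 1867 genes a mean of 100 to 1000 CPM. Only 139 genes were over 1000 CPM, and they held 36.0% of all counts. Those 139 genes were short, with a median exon length of 1199 bases, against 2899 bases for the genes between 100 and 1000 CPM.

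**Figure D1:**
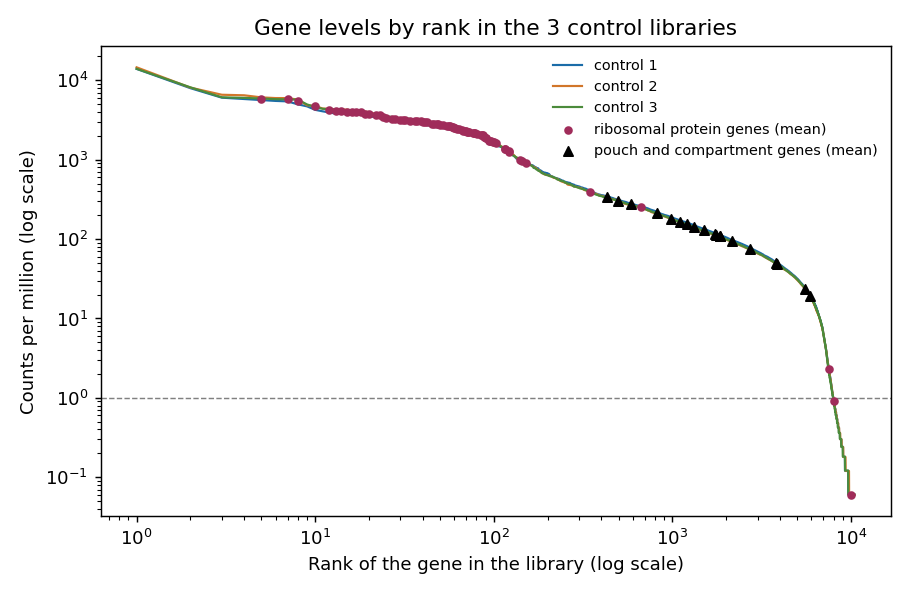
Level of every gene with a count (CPM, log axis) against its rank (log axis) in each of the 3 control libraries, drawn as lines. Points mark ribosomal protein genes and triangles the wing pouch and compartment genes by mean level and rank, and the dashed line is 1 CPM. The 3 lines lie over each other, and nearly all ribosomal protein genes fall on the upper plateau, far above the pouch and compartment genes.

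The counts were concentrated in few genes. The 10 highest genes held 6.67% ± 0.244 of the counts (SD, n = 3), the 100 highest 31.0% ± 1.53 and the 1000 highest 65.0% ± 1.02. The number of genes that together held 50% of the counts was 441 in control 1, 368 in control 2 and 381 in control 3. Control 1 thus spread its counts over more genes than the other libraries did.

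The gene with the most counts carries the identifier FBgn0000556, for which the sources used here gave no symbol or length. It held 230722, 242968 and 229741 counts, a mean of 14140 ± 368 CPM. The cytoplasmic actin gene Act5C followed with 8064 ± 98.1 CPM. Next came alphaTub84B and betaTub56D, the main tubulins, with 6238 ± 292 and 6091 ± 342 CPM. The constitutive chaperone gene Hsc70-4 had 5774 ± 176 CPM and the elongation factor gene eEF2 had 4688 ± 81.2 CPM. Ribosomal protein genes, or sta and Rack1 which also encode ribosome components, took most other places among the first 20.

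Per kilobase of exon the order changed, because short genes gained. RpL41, which encodes a very short ribosomal peptide, was first with 13253, 15109 and 15511 CPM per kb, and its lowest library lay above the highest library of every other gene with a length. RpS27A (5421 ± 452 CPM per kb) and RpL39 (4733 ± 315) followed. The ranges of RpL39, RpS2 and RpLP2 overlapped, so that the order among them does not exceed their spread. Among the 10 genes highest per kb, those outside the cytosolic ribosome were Hsp23, a small heat shock protein gene, with 4182 ± 428, and mt:CoIII, a mitochondrially encoded subunit of cytochrome oxidase, with 4040 ± 903 CPM per kb.

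The small chromosome 4 had the highest share of detected genes among the nuclear chromosomes. Of its 77 genes, 64 (83.1%) were detected with a median of 113 CPM, while the share detected on X, 2L, 2R, 3L and 3R ranged from 50.1% to 60.9% with medians from 45.5 to 51.3 CPM. No test was made of that difference, since genes are not replicates, and the medians are not corrected for exon length. Of 10 Y-linked genes in the files 2 were detected in these female discs. FDY, which arose as a copy of the autosomal gene vig2, held 595, 603 and 512 counts, against 12992, 14417 and 12978 counts for vig2. Reads could be divided between such copies, and the source of the FDY counts was not tested. CR40801 held 26, 30 and 19 counts, and the other Y-linked genes held at most 2.

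Cytosolic ribosomal protein genes were the largest class. Their 81 genes took 18.9%, 21.4% and 20.9% of the counts, and 77 of them were detected, against 55.8% of all genes. Within the class 76 genes were at 10 CPM or more, and the genes under 1 CPM were RpS5b, RpS10a, RpL10Aa and RpS28a, each a second copy of an abundant gene and named here after their values were seen. RpS5a exceeded RpS5b by 2746 ± 492 times per kb (SD, n = 3), while RpL10Aa and RpS28a were at 0 counts in all libraries. RpS19a exceeded RpS19b by 500 ± 96.1 times. By contrast RpS14a and RpS14b, near-identical tandem copies whose reads may be divided between them, differed by 1.19 ± 0.0165 times.

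Other machines of protein synthesis and turnover were almost complete. All 71 mitochondrial ribosomal protein genes were detected, against 55.8% of all genes. They lay between 19.3 and 111 CPM and together took 0.310% of the counts. All 33 aminoacyl-tRNA synthetase genes were detected as well. Of 52 translation factor genes found by symbol 43 were detected, holding 2.68% ± 0.0492 of the counts. Families were read by symbol, so that FBgn0000556, the gene with the most counts, and the other genes without one are in none of them. If such a gene belongs to a family, the share of the counts given for that family is too low. Of 48 genes named as proteasome subunits 34 were detected and took 0.919% of the counts. The 14 under 1 CPM were all variant copies such as Rpt6R and Prosbeta2R1, with 2, 3 and 2 counts for Rpt6R against 4403, 4655 and 4207 for Rpt6, an ATPase of the 26S base.

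Genes of respiration and acidification also held copies at very different levels. Nuclear genes of the respiratory chain and ATP synthase were detected in 68 of 89 cases, and 19 of the 20 genes under 1 CPM have names that end in L or L followed by a digit, such as COX4L and ATPsynbetaL. The V-ATPase subunit gene Vha68-2 exceeded Vha68-1, which was detected with 102, 83 and 85 counts, by 59.2 ± 7.27 times per kb. Of 29 V-ATPase genes 14 (48.3%) were detected, near the 55.8% of all genes. Among 13 mitochondrially encoded genes 11 were detected, and they held 0.700%, 0.825% and 1.10% of the counts in controls 1 to 3.

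**Figure D2:**
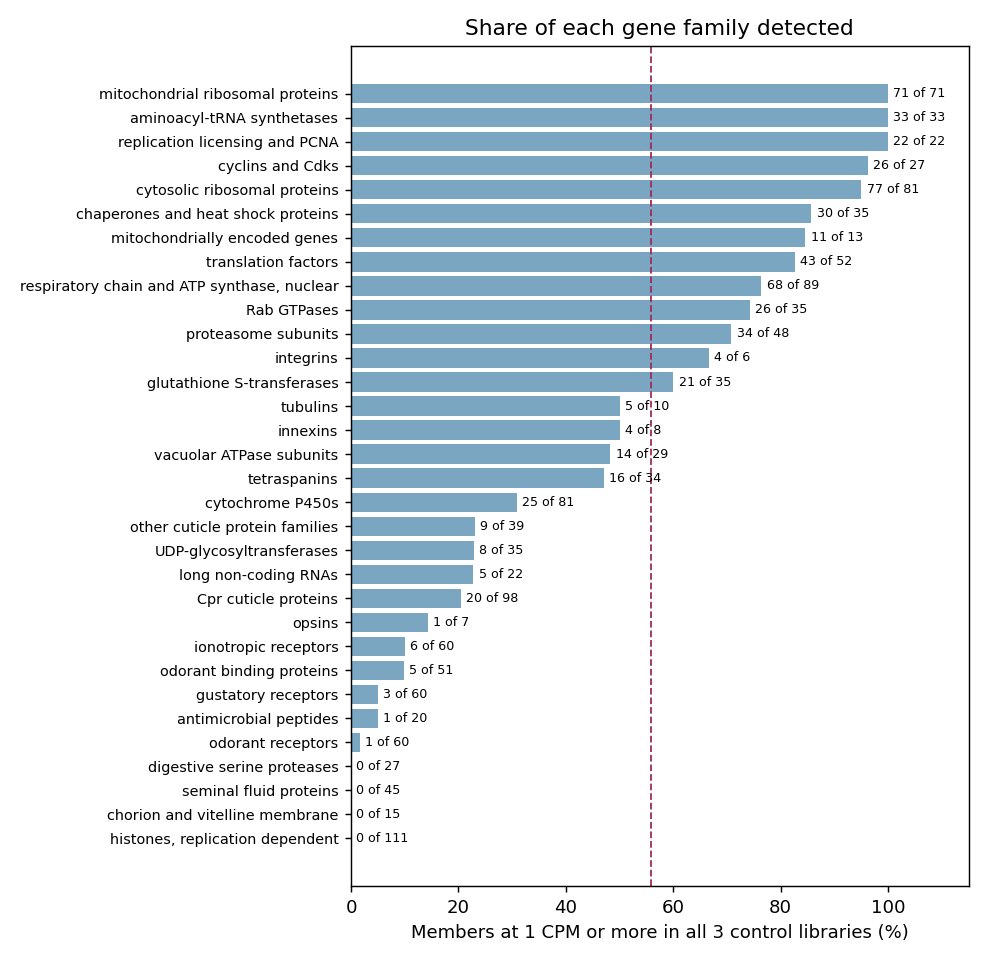
Share of the members of each gene family at 1 CPM or more in all 3 control libraries (bars, %, with the number of members beside each). The dashed line is the 55.8% of all genes detected. Bars run from 100% for mitochondrial ribosomal proteins, tRNA synthetases and replication genes to 0% for replication-dependent histones, eggshell, seminal and digestive protease genes.

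Cell cycle genes were present throughout, in a disc that still grows. All 22 genes of replication licensing, ribonucleotide reduction and the sliding clamp were detected, against 55.8% of all genes. The clamp gene PCNA held 7383, 8610 and 7736 counts (477 ± 36.1 CPM). Of 27 genes for cyclins, cyclin-dependent kinases and their mitotic partners 26 were detected, among them the mitotic kinase genes Cdk1 with 208 ± 5.49 CPM and polo with 450 ± 16.5 CPM. The Cdc25 phosphatase gene stg, which sets entry into mitosis, had 255 ± 13.9 CPM. Replication-dependent histone genes stood apart from these: none of the 111 was detected and the highest, a His3 copy, had 0.925 CPM. The histone copies are near-identical, so that their counts are uncertain and no level of histone RNA is drawn from them.

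Chaperone genes held 2.25% ± 0.0457 of the counts. Of 35 members 30 were detected, against 55.8% of all genes. Besides Hsc70-4 and Hsp23, this class included 6 copies of Hsp70, the inducible chaperone, which together held 6312, 9507 and 6416 counts. Hsp70Aa held 78, 1314 and 609 counts and Hsp70Ab 69, 1284 and 603, whereas Hsp70Bb held 3148, 3131 and 2468. The A copies were thus far lower in control 1 than in the other libraries and Hsp70Bb was not. The other B copies, Hsp70Ba, Hsp70Bc and Hsp70Bbb, are given here only within the sum, so that no contrast of A and B copies is drawn. All these Hsp70 copies are near-identical, and how the counting divided reads between them was not given in the sources used here.

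Innexin, integrin and tetraspanin genes were detected in shares of 50%, 66.7% and 47.1%, around the 55.8% of all genes. Of 8 innexin genes, which encode gap junction proteins, 4 were detected, and Inx2, Inx3 and ogre had 1307 ± 134, 827 ± 125 and 597 ± 84.9 CPM. Per kb Inx3 was above Inx2, with an Inx2 to Inx3 ratio of 0.649 ± 0.0367. Of 6 integrin genes 4 were detected, led by the beta subunit gene mys with 178 ± 13.6 CPM and the alpha subunit gene mew with 161 ± 25.9 CPM. Rab GTPase genes, which direct vesicle traffic, were detected in 26 of 35 cases, with Rab11 of the recycling endosome first at 384 ± 6.55 CPM. Of 34 tetraspanin genes 16 were detected.

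Of 35 glutathione S-transferase genes, which act in detoxification, 21 (60%) were detected, near the 55.8% of all genes, and GstD1 alone had 1117 ± 61.6 CPM. Of 81 cytochrome P450 genes 25 were detected, none above 88.2 CPM, and 8 of 35 UDP-glycosyltransferase genes were. Structural cuticle genes of the Cpr family were detected in 20 of 98 cases, with Cpr49Ac at 5664, 4301 and 4217 counts. Among 39 genes of other cuticle families 9 were detected, with the chitin-binding protein gene obst-A at 3225, 3340 and 3702 counts.

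Transcription factor genes were read as 114 genes in lists by role, chosen with earlier results of these data known. Of these, 90 (78.9%) were detected, against 55.8% of all genes, and 9 had 0 counts in every library. The median level of the detected factors, 19.4 CPM per kb, lay beside the median of 19.5 CPM per kb over all detected genes. The detected factors ranged from 0.169 to 424 CPM per kb. Ordered by level, 82 of the 89 pairs of neighbours had overlapping ranges over the 3 libraries, so that most neighbours cannot be ranked. The exceptions included the top of the order. The gene crc, which encodes fly ATF4, had 413, 422 and 436 CPM per kb. The gene emc, an inhibitor of proneural proteins, had 250, 219 and 236. A Notch target, E(spl)mbeta-HLH, had 178, 174 and 182. These 3 did not overlap with each other or with the next factor, maf-S.

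**Figure D3:**
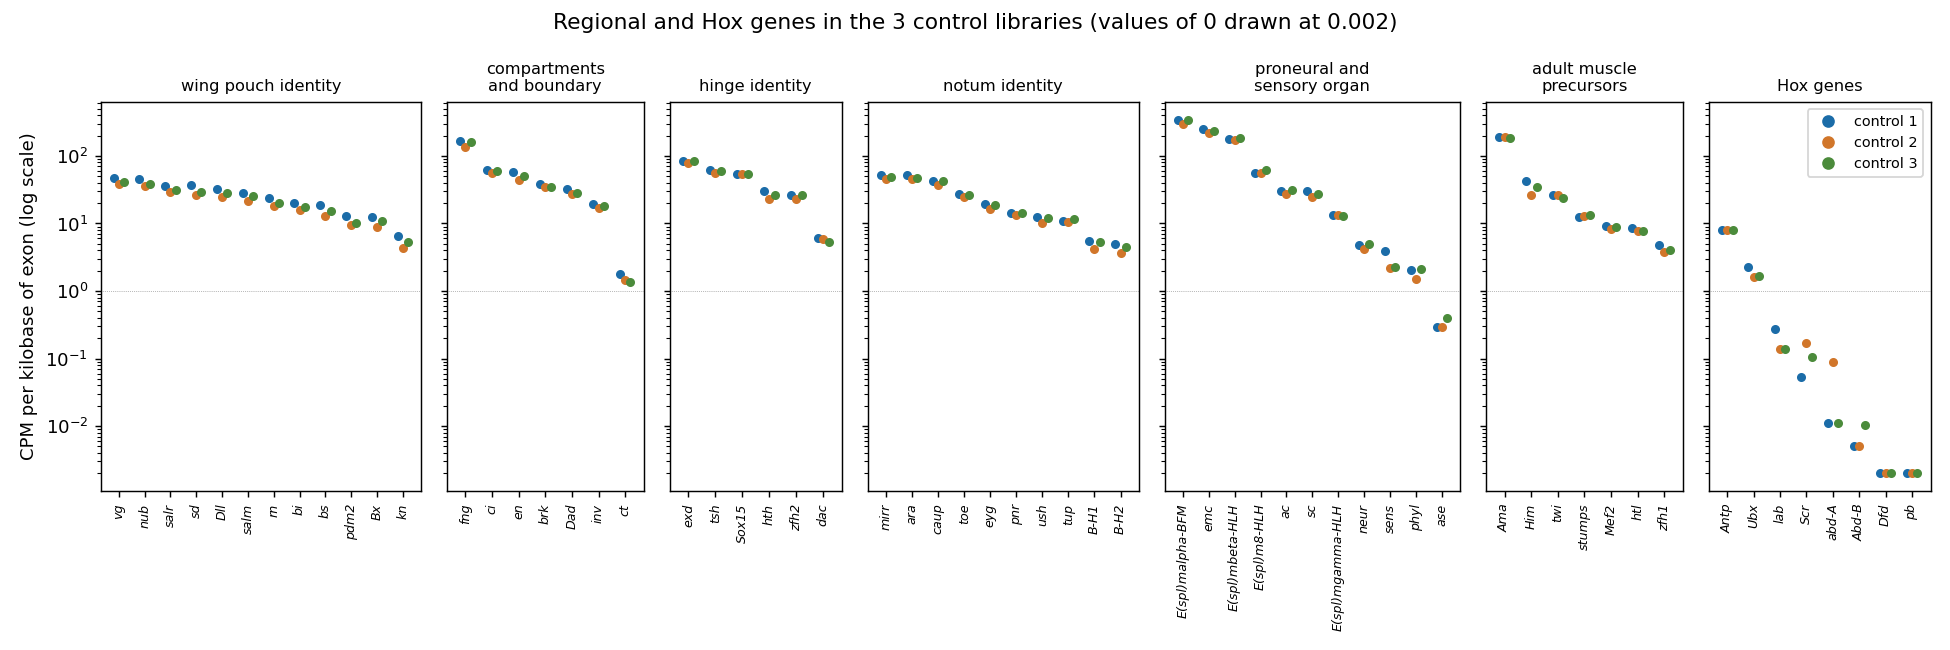
Level of the regional genes of the wing disc and of the Hox genes (CPM per kb of exon, log axis), with 1 point for each of the 3 control libraries and values of 0 drawn at 0.002. Pouch genes lie between 4.35 and 47.2, the blue points of control 1 are highest in all 12 of them, and Antp and Ubx are the only Hox genes above 1.

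All 12 wing pouch genes were detected, against 55.8% of all genes. The Vg partner gene sd held 5471, 3860 and 4280 counts (31.2 ± 5.77 CPM per kb), and vg itself stood at 42.5 ± 4.30 CPM per kb. The nub level was 40.3 ± 5.21 CPM per kb, rank 2047 of the genes with a length, and its ranges overlapped with those of vg. The nub paralog pdm2 was lower, with a nub to pdm2 ratio of 3.72 ± 0.132 per kb. Targets of Dpp signalling that position the veins were also present: salm held 2900, 2229 and 2596 counts, salr 3302, 2742 and 2886, and bi 2043, 1608 and 1752. The salm to salr ratio was 0.781 ± 0.0408 per kb, below 1 in every library. The lowest pouch gene was kn, the vein spacing factor expressed in a narrow band, with 483, 319 and 380 counts (5.41 ± 1.15 CPM per kb). Every one of these 12 genes was highest in control 1 and lowest in control 2, and their exons are long, 5034 bases at the median. Of all 8278 genes tested for spread, 4053 were highest in control 1 and 3553 lowest in control 2.

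All 7 compartment and boundary genes that could be matched were detected, against 55.8% of all genes, and ap was not analysed. The anterior factor gene ci, effector of Hedgehog signalling, held 5847, 5243 and 5552 counts (59.2 ± 3.39 CPM per kb). In the posterior compartment en exceeded its neighbour and paralog inv by 2.78 ± 0.162 times per kb, at 51.1 ± 6.91 against 18.3 ± 1.42. The ranges of ci and en overlapped. The Notch glycosyltransferase gene fng, expressed dorsally, had the highest level of the list, 154 ± 16.2 CPM per kb. At the margin ct held only 372, 301 and 282 counts, or 1.54 ± 0.227 CPM per kb. The Dpp repressor gene brk (35.8 ± 1.96 CPM per kb) was above the Dpp-induced inhibitor gene Dad (29.1 ± 2.74), with no overlap of their ranges.

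All 6 hinge genes were detected, against 55.8% of all genes. The cofactor gene exd held 4670, 4380 and 4622 counts (83.3 ± 3.24 CPM per kb), and its partner hth 5935, 4589 and 5070 (26.5 ± 3.51). The zinc finger genes tsh and zfh2 had 59.3 ± 3.84 and 25.1 ± 1.69 CPM per kb. Sox15, a hinge factor, held 3261, 3316 and 3251 counts, a coefficient of variation (CV, SD over mean) of 0.573%. The proximal leg and hinge gene dac was the lowest of the 6 with 499, 494 and 440 counts.

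All 10 notum genes were detected, against 55.8% of all genes. The Iroquois genes, which set the notum apart from the hinge, were at like levels: ara had 48.2 ± 3.92, caup 40.6 ± 2.53 and mirr 48.5 ± 3.43 CPM per kb. The ara to mirr ratio was 0.994 ± 0.0201, while ara exceeded caup by 1.19 ± 0.0628 times. The GATA factor gene pnr, needed in the medial notum, held 1046, 973 and 1017 counts, and its cofactor gene ush 1400, 1140 and 1327. The Bar genes B-H1 and B-H2, of the lateral prescutum, were the lowest with 248, 193 and 237 counts and 262, 190 and 230 counts.

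Of 11 proneural and sensory organ genes 10 were detected, against 55.8% of all genes. The proneural genes ac and sc were at like levels per kb, with a ratio of 1.08 ± 0.0899 and 0.991 in control 1. Their inhibitor gene emc was higher, at 235 ± 15.7 CPM per kb against 29.6 ± 2.43 for ac. Genes that act later, in single precursor cells, were low: sens held 160, 89 and 91 counts, phyl 63, 46 and 64, and ase 12, 12 and 16. Notch target genes of the E(spl) complex ranged from 13.1 ± 0.192 CPM per kb for E(spl)mgamma-HLH to 331 ± 26.3 for the non-HLH member E(spl)malpha-BFM.

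Genes of the adult muscle precursors were all detected, 7 of 7, against 55.8% of all genes. The mesodermal factor gene twi held 1042, 1035 and 947 counts and the FGF receptor gene htl 589, 524 and 515. Him, an inhibitor of muscle differentiation, held 645, 400 and 517. The Ig-domain gene Ama was the highest of the list with 6244, 6159 and 5881 counts (189 ± 4.96 CPM per kb).

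Of 8 Hox genes 2 were detected. Antp, the Hox gene of the wing-bearing segment, held 1055, 1064 and 1063 counts (8.05 ± 0.0657 CPM per kb). Ubx, which specifies the haltere, held 159, 114 and 119 counts (1.84 ± 0.347 CPM per kb). The other 6 were not detected: pb and Dfd were at 0 in all libraries, lab and Scr held at most 14 counts, and abd-A and Abd-B at most 8. Over all genes 55.8% were detected.

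Embryonic segmentation factors were mostly absent, with 4 of 16 detected, against 55.8% of all genes. Those 4 were kni, which positions a wing vein in the disc, odd, opa and gt, at 1350, 1118 and 1236 counts for kni and 109, 65 and 96 for gt. The pair-rule genes eve, run and prd and the terminal gap genes tll and hkb were at 0 in every library. Retinal determination genes were split: eya held 863, 670 and 687 counts and so 492, 459 and 482, while lz and oc were at 0 and ey, the eye selector, held 24, 13 and 23.

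Growth and stress regulators were all detected, 22 of 22, against 55.8% of all genes. The Hippo effector gene yki had 82.6 ± 3.72 CPM per kb and Myc, driver of growth, 11.5 ± 1.76. The bZIP gene Xrp1 held 6586, 6226 and 6456 counts (80.3 ± 2.60 CPM per kb), whereas its dimer partner gene Irbp18 held 275, 304 and 299 (28.7 ± 1.52 CPM per kb). The endogenous Nrf2 gene cnc stood at 12.3 ± 0.709 CPM per kb, its small Maf partner gene maf-S at 121 ± 10.03 and its inhibitor gene Keap1 at 4.33 ± 0.766. The ranges of these 3 genes did not overlap. Keap1 counts were 298, 220 and 224.

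Of 40 signalling ligand genes 25 (62.5%) were detected, a share near the 55.8% of all genes, and of 25 receptor genes 23 were. The BMP ligand gene gbb was the highest of the ligands with 4778, 4819 and 4765 counts (171 ± 0.444 CPM per kb). The Egfr ligand gene spi had 109 ± 18.9 CPM per kb and the TGF-beta family gene mav 50.7 ± 6.02. Morphogen genes expressed in narrow stripes or 1 compartment were lower than gbb, with dpp at 1204, 1044 and 1100 counts (12.9 ± 0.960 CPM per kb) and hh at 1695, 1423 and 1573 (39.8 ± 3.58). Of the Wnt genes Wnt5 was highest at 22.8 ± 4.29 CPM per kb, Wnt2, Wnt4 and Wnt6 were detected, and wg was not analysed here. Ser, a Notch ligand gene, held 4022, 2992 and 3235 counts.

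Several ligands were at or near 0. The insulin-like genes Ilp1 to Ilp5, made in brain cells, midgut or other tissues, were at 0 counts in all 3 libraries, and Ilp6 held 46, 30 and 28. Ilp8, which damaged discs secrete to delay metamorphosis, held 3, 3 and 0 counts. The cytokine genes upd2 and upd3 held 18, 8 and 8 and 25, 19 and 13 counts, against 213, 255 and 236 for upd1. Activin-beta (Actbeta), made by neurons, held 0, 2 and 1.

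Among receptors tkv, the type I BMP receptor gene, was highest with 78.3 ± 8.53 CPM per kb, and the Wnt receptor gene fz2 followed with 59.6 ± 5.78. Egfr held 6588, 4915 and 5455 counts (49.1 ± 7.47 CPM per kb) and N 6857, 5522 and 5765 (35.9 ± 4.24). The TNF receptor gene grnd held 1661, 1631 and 1664 counts (47.4 ± 0.808 CPM per kb), and the other TNF receptor gene wgn stood at 21.1 ± 3.17. The 2 receptors not detected were tor, which acts in the prothoracic gland and embryo, and sev of the eye. Lgr3, the Ilp8 receptor gene, held 95, 81 and 97 counts.

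Hormone response regulators were detected in 15 of 16 cases, against 55.8% of all genes. The ecdysone receptor genes EcR and usp held 1788, 2016 and 1924 and 1623, 1412 and 1569 counts. Genes of the ecdysone cascade differed between the libraries. Hr3, an ecdysone-induced nuclear receptor gene, held 561, 403 and 177 counts, so that control 3 was lowest. Hr4 held 831, 454 and 456 counts, Blimp-1 665, 348 and 486, and Eip78C 801, 424 and 506. These 3 genes, all ecdysone targets, were highest in control 1. In the opposite direction chinmo, a factor of the juvenile state, held 211, 397 and 399 counts and the nuclear receptor gene ftz-f1 held 278, 434 and 373, both lowest in control 1. Kr-h1, the juvenile hormone target, held 2477, 1924 and 2005. The juvenile hormone receptor gene Met held 293, 226 and 259 counts, and its paralog gce, the regulator not detected, held 5, 3 and 4.

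Gene families of specialised adult or other organs were largely silent. Odorant, gustatory and ionotropic receptors were detected in 1, 3 and 6 of 60 genes each, against 55.8% of all genes. The single odorant receptor was Or43b with 296, 288 and 352 counts. Ir76a led the ionotropic receptors with 595, 453 and 501 counts. Of 51 odorant binding protein genes 5 were detected. None of 27 digestive protease genes, 45 seminal fluid genes or 15 eggshell genes reached detection, and no member of these exceeded 0.844 CPM. Antimicrobial peptide genes were at most 1.29 CPM, with 1 of 20 detected. Of 10 photoreceptor genes 4 were detected. The opsin genes ninaE and Rh3 were at 0, while the opsin gene Rh5 held 38, 30 and 35 counts. Low counts were also held by Arr2 (41, 24 and 22) and ninaC (26, 19 and 27). The gene norpA, which encodes the phospholipase C of the eye, held 1990, 931 and 1287 counts. Of 11 female germline and follicle genes 2 were detected, ovo and aub. The gene ovo, which also shapes the epidermis, had 190 ± 19.997 CPM, and aub held 41, 32 and 29 counts. At most 5 counts were held by osk, otu and the yolk genes.

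The spread between the 3 libraries was compared with counting error, gene by gene, with a chi-square test of the counts against the scaled library totals and Benjamini-Hochberg adjustment. Of 8278 genes with a mean of at least 10 counts, 3643 (44%) were more variable than counting error at an adjusted p under 0.05. The share was 21.6% for genes of 1 to 10 CPM, 37.5% for 10 to 100 CPM, 77.3% for 100 to 1000 CPM and 97.8% above 1000 CPM. The median CV did not rise with that share. It was 16.5% for 1 to 10 CPM, 6.36% for 10 to 100 CPM and 6.51% above 1000 CPM. The median CV from counting error alone fell over the same levels, from 13.1% to 3.86% and 0.516%. The rising share therefore does not show a larger spread at higher levels. Leaving out control 1 brought the calls to 1454, leaving out control 2 to 2393 and leaving out control 3 to 3478. Over all 8278 genes the median CV was 7.22%, against a counting error of 3.70% at the same genes. A CV under 10% was found for 66.4% of the genes and one under 20% for 88.6%, while 332 genes (4.01%) differed over 2-fold between the highest and lowest library. The biological coefficient of variation, the spread beyond counting error estimated by edgeR, was 0.1003, and 0.0787, 0.0840 and 0.126 without controls 1, 2 and 3.

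**Figure D4:**
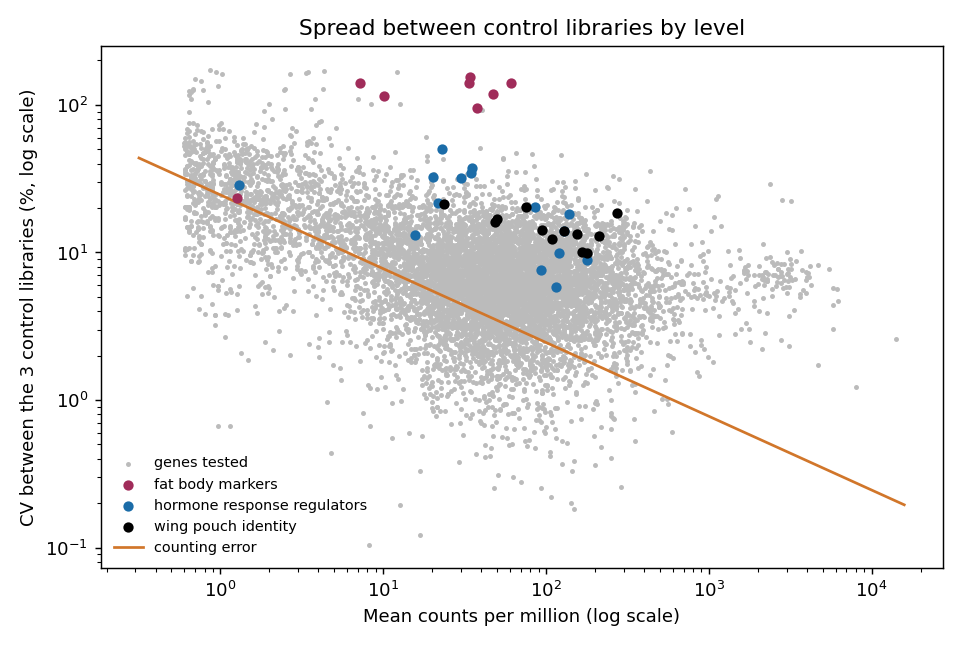
CV of CPM between the 3 control libraries (%, log axis) against mean CPM (log axis) for the 8278 genes tested, with the line giving the CV from counting error alone. Coloured points mark fat body, hormone response and pouch genes. Above 100 CPM most genes lie over the line, and 77.3% of those at 100 to 1000 CPM were called more variable than counting error. Of the 8 fat body markers 7 stand near or above 100%.

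The genes with the largest CV included fat body, muscle and larval cuticle genes beside genes on none of the lists. Control 2 held 597 counts of the larval cuticle gene Lcp1, against 9 and 4 in controls 1 and 3. Lsp1beta, a storage protein of the fat body, held 347, 2663 and 41 counts and Lsp2 held 524, 1813 and 17. Fbp1, the storage protein receptor gene, differed from these in its order with 1256, 566 and 59. CG32249, with the largest CV (171%), held 1, 216 and 1 counts. The 15 genes with the largest CV were CG32249, Lcp1, CG34227, CG42500, Lsp1alpha, Lsp1beta, Lsp1gamma, Fbp2, PPO2, Lsp2, apolpp, Mhc, Prm, Lcp2 and Obp99b. Of these, 14 were highest in control 2, and PPO2 in control 1.

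Few genes separated a library from both others by 2-fold or more. Among 7382 genes with a mean of at least 50 counts, 23 were at least 2-fold higher in control 2 than in either other library, against 3 in control 1 and 1 in control 3. At least 2-fold below both others were 12 genes in control 1, 2 in control 2 and 17 in control 3. The 1 gene higher in control 3 was mt:ND4, a complex I subunit gene, with 1479, 1545 and 3110 counts. The mitochondrial gene mt:ND3 behaved alike with 944, 1053 and 2070 counts. Highest in control 3 were 10 of the 12 mitochondrially encoded genes tested, against 1742 of all 8278 genes tested. Genes lower in control 1 included Hsp70Aa, Hsp70Ab, the transferrin gene Tsf1 and the chitinase-related growth factor gene Idgf6.

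At the other end, 10 genes with a mean of at least 1000 counts had a CV under 0.4%. They were sordd1, Klc, hpo, stck, gbb, CG18273, CG3815, CG4511, CG5854 and bur. The Hippo kinase gene hpo held 1771, 1788 and 1759 counts and the kinesin light chain gene Klc 2368, 2374 and 2352. Their CVs lay below the counting error of genes at that level.

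Part of the spread was shared by genes of like length. In control 1 the log2 deviation was higher for genes with longer exons, from a median of -0.08 in the shortest of 10 deciles to 0.17 in the longest. It went from 0.05 to -0.14 in control 2 and from 0.04 to -0.03 in control 3. With a straight line in log2 length removed from each library, an alternative added after seeing the data, 2581 genes (31.2%) were more variable than counting error, 2305 of them also called before.

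The classes moved with that trend to differing degrees. Ribosomal protein genes, with a median exon length of 922 bases, were lowest in control 1 in 74 of 78 cases, against 2506 of all 8278 genes. Of the 78 genes, 76 were called before and 74 after removal of the trend, and 44% and 31.2% of all genes were. Mitochondrial ribosomal protein genes, of 783 bases, went from 48 to 7 called of 71. The 12 pouch genes had a median log2 deviation of 0.21 in control 1 and -0.19 in control 2, which became 0.10 and -0.11. With the trend removed 11 of 12 were still highest in control 1, and 10 of 12 were called. Of 7 compartment genes 6 were called before and 3 after, and the number highest in control 1 went from 7 to 4. Before removal, 4053 of all 8278 genes were highest in control 1. Notum genes went from 6 to 3 called of 10, with 2 highest in control 1 after removal against 9 before. Of 6 hinge genes 3 were called before and 4 after, and the number highest in control 1 went from 5 to 0. Control 1 was thus no longer the highest library for most notum and hinge genes, while it was for most pouch genes. Receptor genes went from 17 to 11 called of 23 and nuclear respiratory chain genes from 64 to 34 of 70, while ligands had 11 called of 30 and mitochondrially encoded genes 10 of 12 either way.

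Of 15 hormone regulators tested, 13 were called before and 12 after removal of the length trend, against 44% and 31.2% of all genes tested. The CV of Hr3 went from 50.6% to 44.1%, that of Hr4 from 37.3% to 23.2% and that of Eip75B, another ecdysone target, from 18.2% to 6.74%. For chinmo the CV became larger, from 32.2% to 40.8%. The fat body genes, which also differed between the libraries, were called in 7 of 8 cases either way, beside the same shares of all genes.

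**Figure D5:**
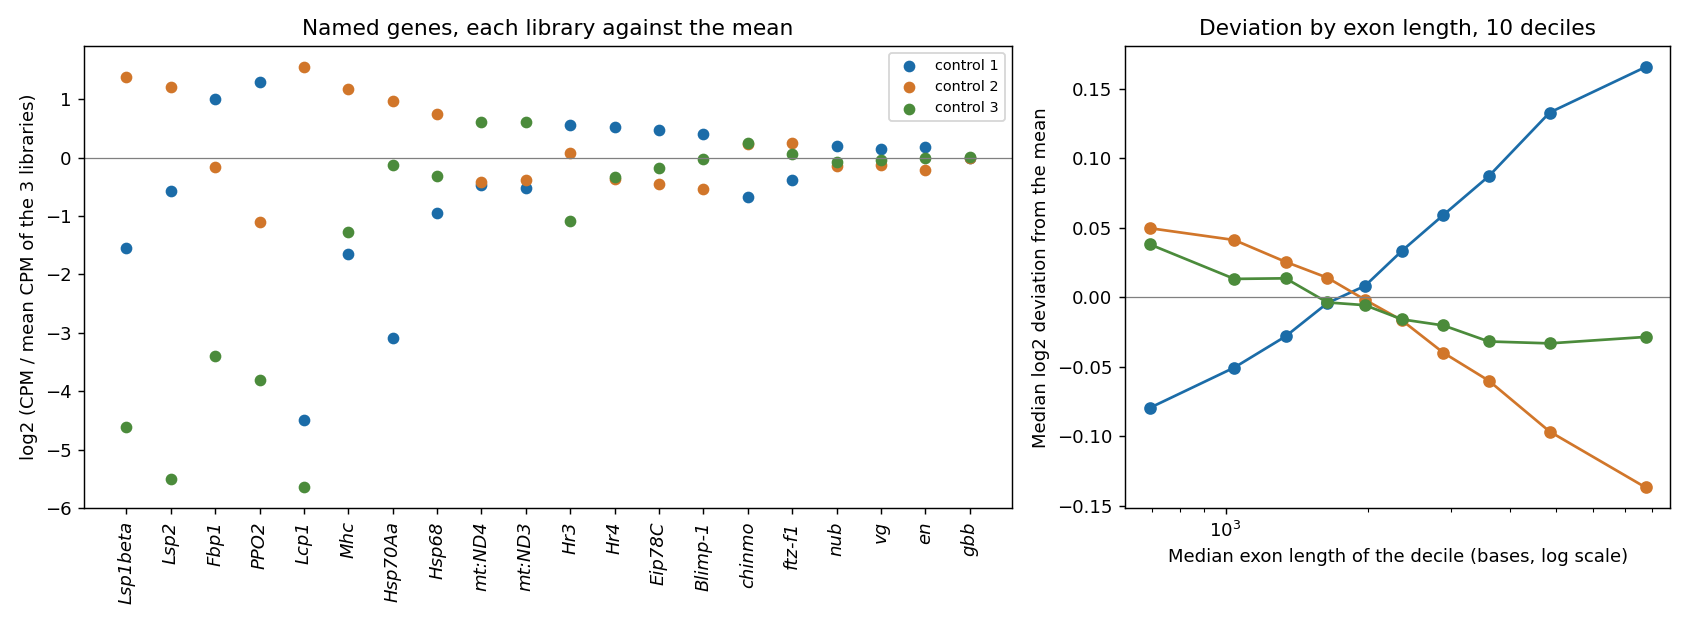
Left, log2 of the CPM of each control library over the mean of the 3 for named genes; right, the median log2 deviation of genes in 10 deciles of exon length (log axis), in the same colours. The fat body genes Lsp1beta, Lsp2 and Fbp1 and the cuticle gene Lcp1 are lowest in control 3. The genes nub, vg and en are highest in control 1, and gbb is level. The median of the longest decile is 0.17 in control 1 and -0.14 in control 2.

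Replicate libraries were close over all genes. Pearson's r of log2(CPM + 1) across 8278 genes was 0.990 for controls 1 and 2, 0.994 for controls 1 and 3 and 0.993 for controls 2 and 3, as a description across genes, which are not independent. The median absolute log2 ratio between libraries was 0.16 for controls 1 and 2, 0.13 for controls 1 and 3 and 0.10 for controls 2 and 3.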

How the data were processed

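TruSeq libraries were made from 500 ng of total wing disc RNA, and the 3 control libraries of the 6 were analysed. The authors deposited raw counts of reads per gene for 13955 genes. The submitters' processing notes name FastQC 0.11.5, Bowtie and BDGP6. How reads were counted, by strand or not, and what was done with reads matching several genes are not given in the sources used here. A series table with the same counts was not used, and 0 columns of per-sample values were left unread.

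CPM is the count over the library total. The totals differed by little, and it is not known if the libraries had been cut to one depth. Gene symbols were those of the reference table for 13661 identifiers with 46 more from a supplementary table of the study, and 248 had none. Exon lengths are merged exons of Ensembl's BDGP6.54 annotation, matched by identifier. Genes without a length held from 5.35% to 5.45% of the counts. Some genes are not reported here.

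Spread was tested with a Poisson heterogeneity chi-square test on totals scaled by TMM factors, with Benjamini-Hochberg adjustment over genes with a mean of at least 10 counts (scipy 1.17.1, pandas 2.3.3, Python 3.11.15). The dispersion came from edgeR 4.0.16 in R 4.3.3. The procedures were tested on simulated data. These tests compare 3 libraries and measure only the spread between them. The limit for a count of 0 is 3 counts and covers counting error only.

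Named genes were the members of lists by role, the 20 highest genes by CPM and by CPM per kb, the 15 with the largest CV (mean of at least 50 counts and more variable than counting error), the 10 with the smallest CV (mean of at least 1000 counts) and the highest members of each family. Further genes were named after their values were seen. The members and lists were chosen with earlier results of these data known, and symbols and name patterns in the lists were corrected once the files had been read. The alternatives were DESeq2 1.42.0 size factors and edgeR TMM scaling for detection, detection at 0.5 CPM or by counts, an adjusted p under 0.01, no filter on low counts, unscaled totals, CPM per kb, and leaving out each library in turn. No sequences were used here.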

Additional observations from a re-analysis of the deposited data

How the results depend on the processing

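The number of genes detected ranged from 7836 to 7845 when a library was left out, was 7778 with TMM scaling, 7790 with DESeq2 size factors, 8132 at 0.5 CPM, 8068 at 10 counts in every library and 9619 at 1 count in every library. The number of genes more variable than counting error ranged from 1454 to 3478 when a library was left out, against 3643 with all 3, and the lowest was without control 1. With fewer libraries the test has less power, and the part of control 1 itself was not tested. The share held by the 100 highest genes was 47.4% by CPM per kb against 31.0% by CPM, and that of ribosomal protein genes 38.4% against 20.4%, since CPM per kb weighs short genes more. The rank of nub was 818 by CPM without length and 2047 per kb. No paired analysis was possible because the results concern a single group and come from no test between groups. Genes with few counts limit the description: at 1 CPM about 17 counts were available, and 3 libraries cannot separate a library effect from biological spread.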
